A study of Mus musculus with 12 samples.

Results

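Cells of the inner renal medulla live in fluid with high and changing salt and urea. The 8 genes described here are among those by which they handle both. They are Nfat5, Slc5a3, Slc6a6, Slc6a12, Akr1b3, Slc38a2, Slc14a1 and Slc14a2, 8 of the 47642 genes in the table. They were chosen by name for their known function, with earlier results of these data known, and matched by Ensembl identifier and symbol. All 8 were found.

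RNA-seq was performed in mIMCD3, a cell line of the mouse inner medullary collecting duct made from mice that carry the early region of the simian virus SV40, which keeps the cells dividing. There were 12 libraries, 4 from wild-type cells (Wt), 4 from cells with a CRISPR deletion of Pkd1 (Pkd1-/-) and 4 from cells with a TALEN deletion within Pkd2 (Pkd2-/-). Pkd1 and Pkd2 encode the polycystins whose loss causes autosomal dominant polycystic kidney disease, and the comparison asks what their loss does to transcription in the tubular cell itself. All 3 genotypes derive from the same SV40-bearing line and were grown alike in DMEM-F12 medium with fetal bovine serum until 4 days past confluency, and the growth protocol names no added salt or urea. Each mutant genotype was represented by 1 clone. The 4 libraries of a genotype are taken to be separate dishes of that clone, so every p-value below measures the spread between dishes and not between clones, and an effect of the clone cannot be told apart from an effect of the genotype.

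NFAT5, also called TonEBP, is the transcription factor that raises the genes for organic osmolytes when salt around the cell is high. Slc5a3 encodes SMIT1, which takes up myo-inositol, Slc6a6 encodes the taurine transporter TauT, Slc6a12 encodes the betaine transporter BGT1, and Akr1b3 encodes aldose reductase, which makes sorbitol from glucose. These solutes balance high salt outside the cell without disturbing proteins. Slc38a2 encodes SNAT2, a neutral amino acid transporter that is induced by amino acid shortage and by hypertonic medium. Slc14a1 (UT-B) and Slc14a2 (UT-A) encode the urea transporters, of which UT-A makes the terminal collecting duct permeable to urea.

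On the GRCm38 build, Nfat5 (ENSMUSG00000003847) lies at chr8:107293470-107379517 on the plus strand, with 18378 annotated exon bases. Slc5a3 (ENSMUSG00000089774) lies at chr16:92058322-92087473 on the plus strand, with 10913 exon bases, of which 159 (1.46%) also belong to Mrps6, a mitochondrial ribosomal protein gene on the same strand. Slc6a6 (ENSMUSG00000030096) is at chr6:91684053-91759066 and Slc6a12 (ENSMUSG00000030109) at chr6:121343076-121365775, both on the plus strand. Akr1b3 (ENSMUSG00000001642) is at chr6:34302434-34317478 and Slc38a2 (ENSMUSG00000022462) at chr15:96687392-96699730, both on the minus strand.  Over 50-base words of the longest annotated transcripts, 0 were shared between Akr1b3, Slc6a6, Slc38a2, Nfat5 or Slc5a3 and the paralogs checked (Akr1b7, Akr1b8 and Akr1b10, Slc6a8, Slc38a1, Nfatc3, Slc5a11).

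NFAT5 binds a DNA element named TonE, and the 250 bases before the annotated start are printed for the 4 members with a promoter entry from RefSeq (GRCm38.p6), because 3 of them are expressed and moved between the genotypes and the other, Slc6a12, was silent. Each sequence runs 5′ to 3′ on the gene's strand, and capitals mark a match to the TonE consensus. Slc6a12 has 5 annotated starts, and the window of the most upstream is given; the windows of the other 4 held no TonE match and no TGGAAA.
Slc6a12 (chr6:121342324-121342573, strand +): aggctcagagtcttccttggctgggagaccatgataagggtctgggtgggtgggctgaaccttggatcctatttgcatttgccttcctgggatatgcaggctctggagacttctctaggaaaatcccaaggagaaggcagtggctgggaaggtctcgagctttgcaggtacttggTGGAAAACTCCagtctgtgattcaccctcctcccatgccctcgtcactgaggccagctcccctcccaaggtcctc
Nfat5 (chr8:107293220-107293469, strand +): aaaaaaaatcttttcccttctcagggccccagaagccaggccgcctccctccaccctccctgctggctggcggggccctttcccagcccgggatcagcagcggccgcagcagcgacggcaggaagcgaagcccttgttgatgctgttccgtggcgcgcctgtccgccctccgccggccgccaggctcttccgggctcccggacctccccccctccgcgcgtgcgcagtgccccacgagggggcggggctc
Slc5a3 (chr16:92058072-92058321, strand +): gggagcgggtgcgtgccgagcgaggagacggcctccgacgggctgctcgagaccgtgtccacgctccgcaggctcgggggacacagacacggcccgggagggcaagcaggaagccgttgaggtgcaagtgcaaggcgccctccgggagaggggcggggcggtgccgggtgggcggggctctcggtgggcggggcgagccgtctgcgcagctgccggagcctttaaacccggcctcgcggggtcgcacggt
Slc38a2 (chr15:96699729-96699978, strand -): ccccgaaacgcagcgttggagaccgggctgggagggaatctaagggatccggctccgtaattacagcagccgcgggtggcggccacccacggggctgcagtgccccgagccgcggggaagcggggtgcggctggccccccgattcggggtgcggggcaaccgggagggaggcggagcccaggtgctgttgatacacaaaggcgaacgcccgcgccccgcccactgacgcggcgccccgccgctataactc
The window of Slc6a12, the gene that was not detected in any library, held the only TonE match among these members, TGGAAAACTCC. The match begins 75 bases before the most upstream of the 5 annotated starts, which lies upstream of the gene start given above. The windows of Nfat5, Slc5a3 and Slc38a2 held no TonE match, no TGGAAA, the core contained in TonE, and no TGATGNAAN, a core bound by ATF4 at amino acid response elements, with both strands searched. Of the 32851 promoter windows in the table, 4.31% held a TonE match, 18.581% held TGGAAA and 3.437% held TGATGNAAN. The absence of a match says only that these letters are not in these 250 bases. The windows of Slc5a3 and Mrps6 are the same stretch of DNA, offset by 14 bases.

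The libraries held 25966273 to 28027792 normalized counts, and the spacing of the low values puts their depth at an estimated 23200000 to 30330000 reads in genes. Pkd1 fell from 682 to 883 normalized counts in Wt to 30 to 49 in Pkd1-/- cells. Pkd2, summed over the whole gene, stood at 3438 to 4467 in Wt and 3855 to 4135 in Pkd2-/- cells, and since the deletion removes only part of the gene, this sum does not check the label. All 7 epithelial markers were expressed, with a summed level of 71450 to 85729 in the 12 libraries. Of the 11 collecting duct markers, 6 exceeded 3 counts in a Wt library, with summed levels of 4363 to 4780 in Wt, 3362 to 3405 in Pkd1-/- and 3631 to 4143 in Pkd2-/- cells, but Aqp2 and Aqp4, the water channels that define the principal cell, were at 0 in all 12 libraries. Markers of other cell types were low or rested on a single gene. Summed endothelial markers reached at most 9 counts and loop of Henle markers at most 7. Proximal tubule markers summed to 480 to 557 in Wt, 33 to 71 in Pkd1-/- and 744 to 1222 in Pkd2-/- cells, the same order of genotypes as Nfat5 and Slc5a3, and most of it was the endocytic receptor gene Lrp2, while Slc34a1 and Slc22a6 were at 0 in all 12 libraries. Intercalated cell markers summed to 29 to 82, 437 to 547 and 3 to 5, mostly Atp6v1b1 in Wt and Pkd1-/- cells, with Foxi1 and Atp6v0d2 at 0 throughout. Fibroblast markers summed to 32 to 58, 89 to 101 and 15 to 141, and leukocyte markers to 59 to 73, 47 to 65 and 52 to 69, with Cd3e and Adgre1 at 0. The part of these markers in the results was not tested. Replicate 4 had the highest level of long transcripts in each genotype, and results that rest on it are given with and without it, except for Ptgs2. In bulk RNA, fewer cells that express a gene and less of its RNA per cell cannot be told apart.

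In Wt cells, 5 of the 8 genes were expressed and 3 were at or near 0. Per kb of annotated exon, Slc38a2 stood highest at 1219 ± 106 normalized counts (SD, n = 4), followed by Nfat5 at 555 ± 108 and Slc6a6 at 521 ± 23.4, Akr1b3 at 266 ± 16.5 and Slc5a3 at 101 ± 8.37. The ranges of Nfat5 and Slc6a6 overlapped, and the other neighbours in this order were separated in every library. In Pkd1-/- cells, Nfat5 at 358 ± 64.2 per kb lay below Slc6a6 at 511 ± 36.7, with no overlap. In Pkd2-/- cells the same genes stood at 855 ± 183 and 864 ± 41.2 per kb and again overlapped.

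**Figure D1:**
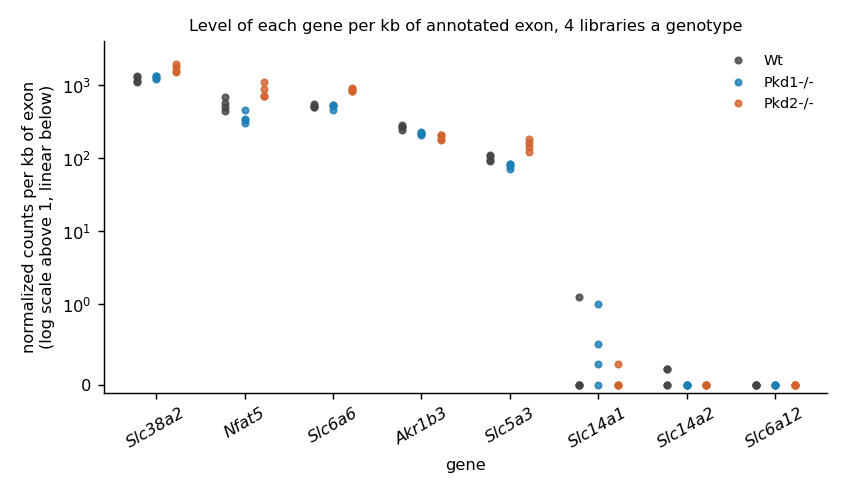
Normalized counts per kb of annotated exon (vertical axis, log scale above 1 and linear below) for the 8 genes; each point is 1 library and colours are genotypes. Slc38a2 lies highest in every library, while Slc14a1, Slc14a2 and Slc6a12 lie at or near 0.

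Relative to Wt, Nfat5 and Slc5a3 fell in Pkd1-/- cells and rose in Pkd2-/- cells, Slc6a6 and Slc38a2 rose in Pkd2-/- cells, and Akr1b3 fell in both mutants. In Pkd1-/- against Wt, 3 of the 6 tested members passed the test (limma, adjusted p under 0.05), all lower, and 27.1% of all genes tested passed, with 13.5% lower. In Pkd2-/- against Wt, 5 of the 6 passed, 4 higher and 1 lower, where 42.3% of all genes passed, with 20.0% higher and 22.3% lower. Taken over the 6 tested members, log2 fold changes had a median of -0.17 in Pkd1-/- and 0.52 in Pkd2-/- cells, beside 0.01 and -0.01 over all genes tested. Slc6a12 and Slc14a2 had means under 1 normalized count and were not tested. When the change also had to reach 1 in size on the log2 scale, 0 members passed in either mutant, where 6.24% of all genes passed in Pkd1-/- and 9.62% in Pkd2-/- cells.

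**Figure D2:**
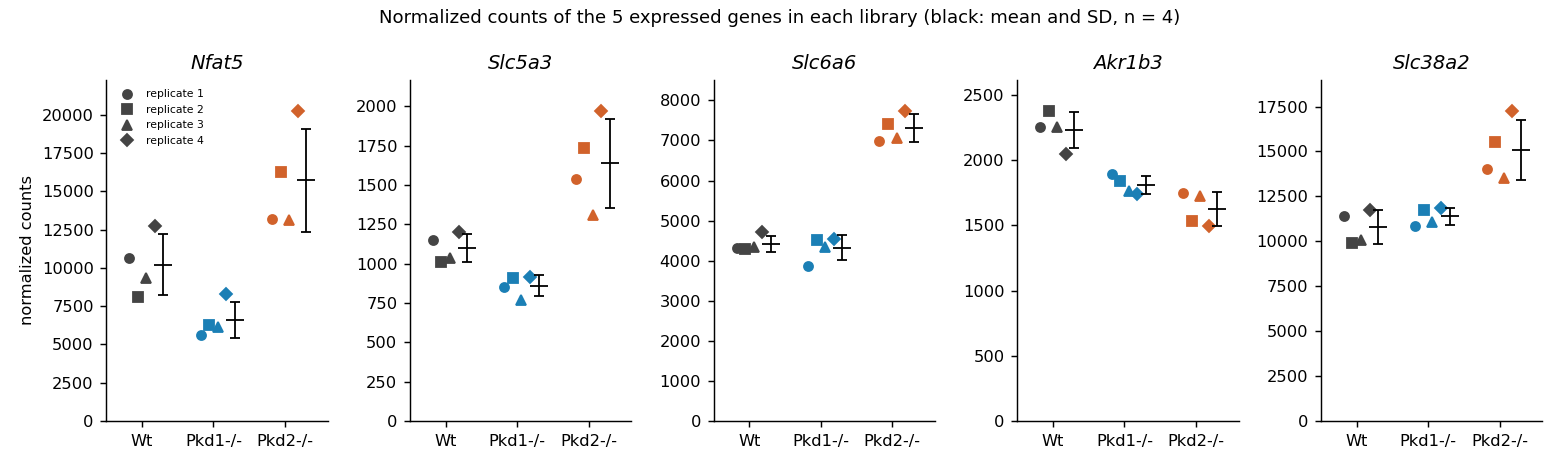
Normalized counts (vertical axes, from 0) of the 5 expressed genes in the 12 libraries; marker shapes are replicate numbers, and black bars are the mean and SD of 4 libraries. Pkd2-/- libraries lie above all Wt libraries for Nfat5, Slc5a3, Slc6a6 and Slc38a2 and below them for Akr1b3. Over all genes tested, 37.2% did not overlap between Pkd2-/- and Wt.

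Nfat5, the regulator, had 10635, 8084, 9341 and 12750 normalized counts in Wt replicates 1 to 4. It had 5593, 6284, 6146 and 8290 in the Pkd1-/- libraries, and 13202, 16252, 13141 and 20272 in the Pkd2-/- libraries. All Pkd2-/- libraries were above all Wt libraries, while the highest Pkd1-/- library lay just above the lowest Wt library. Over all genes tested, 37.2% did not overlap between Pkd2-/- and Wt. The Pkd1-/- mean was 0.645 times the Wt mean, a log2 fold change of -0.63 (SE 0.14, adjusted p = 0.00239). The Pkd2-/- mean was 1.54 times the Wt mean, a log2 fold change of 0.62 (SE 0.14, adjusted p = 0.00153). Exact two-sided permutation tests over the libraries alone gave p = 0.0571 for Pkd1-/- and p = 0.0286 for Pkd2-/- cells, where 0.0286 is the smallest value that 4 against 4 libraries allow.

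The Nfat5 transcript is long, and the level of long transcripts as a class moved between libraries along with it. Over 282 genes with an annotated transcript of at least 10 kb, log2 fold changes had a median of -0.01 in Pkd1-/- and 0.26 in Pkd2-/- cells, beside 0.01 and -0.02 for shorter ones. Replicate 4 was the highest of its genotype in Nfat5, by 0.34 in Wt, 0.35 in Pkd1-/- and 0.39 in Pkd2-/- on the log2 scale above the genotype's mean, and also in the long transcripts, by 0.16, 0.15 and 0.23. The lowest libraries in long transcripts lay as far on the other side in Wt and Pkd1-/- cells, by -0.17 for Wt replicate 2 and -0.16 for Pkd1-/- replicate 1. Without replicate 4 of every genotype, the Nfat5 fold changes were -0.63 (adjusted p = 2.915e-05) and 0.60 (adjusted p = 2.265e-05). With each library corrected for transcript length and GC content, they were -0.58 (adjusted p = 1.088e-06) and 0.60 (adjusted p = 2.549e-07). The direction for Nfat5 held in both alternatives. The correction moved the median over all genes tested from 0.011 to 0.025 in Pkd1-/- and from -0.006 to 0.099 in Pkd2-/- cells. Fold changes given with the correction were not re-centred on that median. Within ±1 Mb of Nfat5, the 22 neighbouring genes that averaged at least 10 counts had medians of 0.05 in Pkd1-/- and 0.14 in Pkd2-/- cells.

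**Figure D3:**
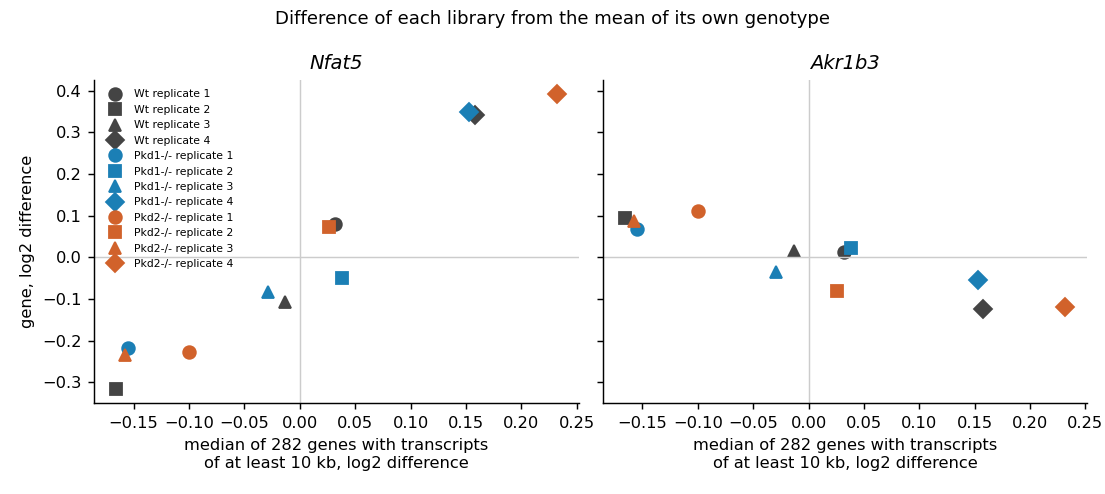
For each library, the log2 difference of Nfat5 (left) and Akr1b3 (right) from the mean of its own genotype against the median difference of 282 genes with transcripts of at least 10 kb; colours are genotypes and shapes replicate numbers. Replicates 4 lie at the upper right for Nfat5 and at the lower right for Akr1b3.

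Slc5a3, which imports myo-inositol, followed the same order of genotypes as Nfat5. It had 1151, 1009, 1037 and 1201 normalized counts in Wt, 852, 906, 766 and 916 in Pkd1-/- and 1535, 1736, 1310 and 1971 in Pkd2-/- cells. No library of either mutant overlapped with Wt, and over all genes tested 27.1% did not overlap in Pkd1-/- and 37.2% in Pkd2-/- cells. Slc5a3 thus fell by 0.35 in the absence of Pkd1 (SE 0.10, adjusted p = 0.01075) and rose by 0.56 in the absence of Pkd2 (SE 0.10, adjusted p = 0.000121), both as log2 fold changes. With the correction for length and GC content these were -0.31 and 0.60, both past the threshold. Without replicate 4 of every genotype they were -0.34 (adjusted p = 0.00987) and 0.51 (adjusted p = 0.000185). The annotated transcript of Slc5a3 is 10913 bases long, so it belongs to the class of at least 10 kb. The part of that class in the change of Slc5a3 was not tested. Mrps6, which shares the 159 exon bases and the promoter with Slc5a3, had a log2 fold change of -0.13 in Pkd1-/- cells (adjusted p = 0.155, and 0.0391 with the correction) and rose by 0.35 in Pkd2-/- cells (adjusted p = 0.000159), and reads within the shared bases could not be assigned to either gene. Over the 23 other genes within ±1 Mb of Slc5a3, Mrps6 among them, the medians were -0.17 and 0.01.

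Slc6a6, the taurine transporter, rose in Pkd2-/- cells, with the smallest adjusted p of the 6 tested members. It had 4311, 4289, 4331 and 4705 normalized counts in Wt, 3871, 4513, 4352 and 4543 in Pkd1-/- and 6991, 7423, 7058 and 7742 in Pkd2-/- cells. Pkd1-/- and Wt libraries overlapped, whereas every Pkd2-/- library was above all 8 others. Over all genes tested, 37.2% did not overlap between Pkd2-/- and Wt, and 41.8% between the mutants. The Pkd2-/- mean was 1.66 times the Wt mean, a log2 fold change of 0.73 (SE 0.05, adjusted p = 3.106e-09). In Pkd1-/- cells the log2 fold change was -0.03 with a 95% confidence interval of -0.15 to 0.08 (adjusted p = 0.740). Over the 13 other genes within ±1 Mb of Slc6a6, the median was 0.17 in Pkd2-/- cells, with 9 of the 13 above 0. In Pkd1-/- cells it was -0.09, with 4 of 13 above 0. The part of the surroundings in the change of Slc6a6 was not tested. Slc6a12, the betaine transporter and its relative in the same family, was at 0 in all 12 libraries, and a count of 0 allows up to 3 reads in a library.

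Akr1b3, the sorbitol-producing aldose reductase, was the member that fell in both mutants. It had 2251, 2379, 2255 and 2046 normalized counts in Wt, 1897, 1838, 1766 and 1742 in Pkd1-/- and 1750, 1532, 1723 and 1493 in Pkd2-/- cells. All mutant libraries were below all Wt libraries, and replicate 4 was the lowest of each genotype. Over all genes tested, 27.1% did not overlap between Pkd1-/- and Wt, and 37.2% between Pkd2-/- and Wt. On the log2 scale Akr1b3 fell by 0.30 in Pkd1-/- (SE 0.06, adjusted p = 0.000913) and fell by 0.46 in Pkd2-/- cells (SE 0.06, adjusted p = 5.42e-06). Without replicate 4 of every genotype the changes were -0.32 (adjusted p = 0.000649) and -0.46 (adjusted p = 7.6e-06). Its genomic surroundings moved with it in Pkd2-/- cells, where the median over the 14 genes within ±1 Mb was -0.36 and 2 of the 14 were above 0, beside -0.06 and 6 of 14 in Pkd1-/- cells. The part of the surroundings in the change of Akr1b3 was not tested.

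The aldo-keto reductase paralogs near Akr1b3 did not share one course. Akr1b10, with 650 to 809 normalized counts in Wt, fell in Pkd2-/- cells to 435 to 522, -0.59 on the log2 scale (adjusted p = 3.647e-06), while its log2 fold change in Pkd1-/- cells was 0.00 (adjusted p = 0.978). Akr1b8 rose by 0.18 in Pkd1-/- (adjusted p = 0.0417) and fell by 0.21 in Pkd2-/- cells (adjusted p = 0.0124) on the log2 scale. The call in Pkd1-/- cells did not hold without replicate 4 of every genotype (adjusted p = 0.267), nor that in Pkd2-/- cells with the correction for length and GC content (adjusted p = 0.111).

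Slc38a2, the neutral amino acid transporter, was the most abundant member per kb of exon. It had 11434, 9897, 10046 and 11734 normalized counts in Wt, 10829, 11739, 11098 and 11860 in Pkd1-/- and 14024, 15539, 13514 and 17265 in Pkd2-/- cells. Pkd1-/- and Wt overlapped, and every Pkd2-/- library was above all others. Over all genes tested, 37.2% did not overlap between Pkd2-/- and Wt, and 41.8% between the mutants. The log2 fold change of Slc38a2 was 0.48 in Pkd2-/- cells (SE 0.07, adjusted p = 1.903e-05). In Pkd1-/- cells it was 0.08 with a 95% confidence interval of -0.07 to 0.23 (adjusted p = 0.454), and with the correction for length and GC content it was 0.14 and passed the test (adjusted p = 0.00849). Within ±1 Mb of Slc38a2 lay 8 other genes, whose median in Pkd2-/- cells was 0.26 with 6 of the 8 above 0, and the part of the surroundings in the change was not tested. Slc38a1, its paralog SNAT1, had 4040 to 4627 normalized counts in Wt, 3227 to 3633 in Pkd1-/- and 4461 to 5675 in Pkd2-/- cells. It fell by 0.31 in Pkd1-/- (adjusted p = 0.00138) and rose by 0.30 in Pkd2-/- cells (adjusted p = 0.00125) on the log2 scale, with an overlap of Pkd2-/- and Wt libraries.

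The urea transporters were barely detected. Their genes are neighbours on the minus strand of chromosome 18, Slc14a1 (ENSMUSG00000059336) at chr18:78100091-78142119 and Slc14a2 (ENSMUSG00000024552) at chr18:78146148-78596942. Slc14a1 had 0, 5, 0 and 0 normalized counts in Wt, 2, 4, 0 and 1 in Pkd1-/- and 1, 0, 0 and 0 in Pkd2-/- cells. The highest single value was in a Wt library, and the genotypes overlapped. Slc14a1 did not pass the test in either mutant (adjusted p = 0.589 and 0.680), and no difference was detectable at this depth, with a 95% confidence interval of the log2 fold change from -0.82 to 1.98 in Pkd1-/- and from -1.80 to 1.01 in Pkd2-/- cells. Slc14a2, the urea transporter of the collecting duct itself, had 1 count in each of 2 Wt libraries and 0 in the other 10. Neither reached 1.3 counts per kb in any library, where Slc5a3, the least abundant of the expressed members, had at least 70.2.

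The mutants differed from each other in 5 of the 6 tested members, 4 higher and 1 lower in Pkd2-/- cells, where 46.3% of all genes passed, 21.9% higher and 24.3% lower. The Nfat5 mean in Pkd2-/- cells was 2.39 times that in Pkd1-/- cells, or 1.25 higher on the log2 scale (SE 0.14, 95% confidence interval 0.95 to 1.55, adjusted p = 6.45e-07). It was the only member to differ by 1 or more on that scale, where 11.8% of all genes passed both thresholds. Slc5a3 differed by 0.92 (adjusted p = 2.948e-07), Slc6a6 by 0.76 (adjusted p = 1.271e-09) and Slc38a2 by 0.40 (adjusted p = 0.000118), and for each of these every Pkd2-/- library was above every Pkd1-/- library, as 41.8% of all genes did not overlap in this comparison. Akr1b3 was lower by a log2 fold change of -0.16 (adjusted p = 0.0395), the libraries overlapped, and the call did not hold without replicate 4 of every genotype (adjusted p = 0.0815) or with the correction for length and GC content (adjusted p = 0.164). This comparison uses the same mutant libraries as the comparisons with Wt.

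**Figure D4:**
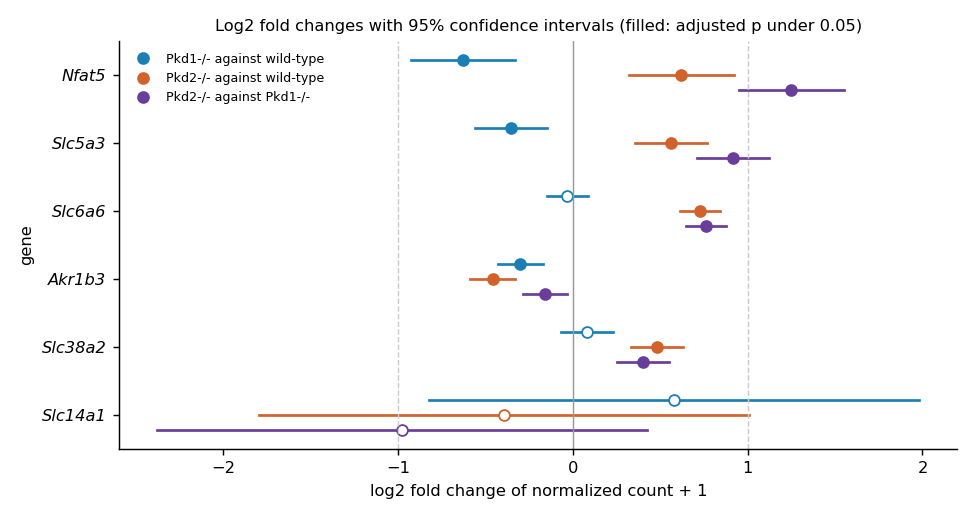
Log2 fold changes of normalized count + 1 (horizontal axis) of the 6 tested members in the 3 comparisons, with 95% confidence intervals; filled points passed an adjusted p under 0.05, and dashed lines mark a log2 fold change of 1 in size. Nfat5 and Slc5a3 lie on opposite sides of 0 in the 2 mutants against Wt, and Akr1b3 lies below 0 in both.

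Across the 12 libraries, the genes with a pattern most like that of Nfat5 were Tnfrsf22, Zbtb20 and Map3k2. Likeness was measured as the root mean square difference of log2 values, each gene centred on its own mean, among 13702 genes, and these had values of 0.121, 0.139 and 0.142. The annotated transcripts of Zbtb20 and Map3k2 also exceed 10 kb in length, while that of Tnfrsf22 is 4170 bases long. Slc5a3, whose annotated transcript also exceeds 10 kb, ranked 28 (0.206), Slc6a6 367 (0.320), Slc38a2 1162 (0.400) and Akr1b3 9169 (0.677). These are descriptions of 12 libraries in 3 genotypes.

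The other NFAT family members, which respond to calcium through calcineurin, took courses of their own. Nfatc2 rose in Pkd2-/- cells from 281 to 424 normalized counts in Wt to 703 to 888, a log2 fold change of 1.29 (adjusted p = 7.529e-09), and had a log2 fold change of 0.12 in Pkd1-/- cells (adjusted p = 0.428), which was 0.26 and passed the test without replicate 4 of every genotype (adjusted p = 0.0481). Nfatc4 fell in Pkd1-/- cells by 0.41 (adjusted p = 0.00675) and in Pkd2-/- cells by 1.01 (adjusted p = 3.607e-07) on the log2 scale. Nfatc3, the most abundant of them with a Wt mean of 3674, did not pass in either mutant (adjusted p = 0.320 and 0.126), but passed in both with the correction for length and GC content (0.17 and 0.23). Nfatc1 fell by 0.37 in Pkd1-/- cells (adjusted p = 0.0420), a call lost without replicate 4 of every genotype (adjusted p = 0.0726). Slc6a8, the creatine transporter of the family of Slc6a6, fell by 0.25 in Pkd1-/- (adjusted p = 0.00178) and by 0.22 in Pkd2-/- cells (adjusted p = 0.00237).

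Enzymes and transporters that work on the same solutes moved in both directions. Of 17 such genes, 12 were tested, with 2 higher and 3 lower in Pkd1-/- and 4 higher and 3 lower in Pkd2-/- cells, where 27.1% and 42.3% of all genes passed. Their median log2 fold changes were -0.01 and -0.02, close to those of all genes. Chdh, which makes betaine from choline, had 1326, 1289, 1336 and 1234 normalized counts in Wt, 1007, 1172, 1138 and 1143 in Pkd1-/- and 2637, 2650, 2759 and 2904 in Pkd2-/- cells. The 3 genotypes did not overlap. Over all genes tested, 27.1% did not overlap between Pkd1-/- and Wt, 37.2% between Pkd2-/- and Wt and 41.8% between the mutants. Chdh rose by 1.08 in Pkd2-/- (SE 0.06, adjusted p = 1.43e-11) and fell by 0.22 in Pkd1-/- cells (adjusted p = 0.00589) on the log2 scale.

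Of 9 other genes described as NFAT5 targets, 8 were tested. In Pkd1-/- cells 4 were higher and 1 lower, where 13.6% and 13.5% of all genes were, and in Pkd2-/- cells 5 were higher and none lower, where 20.0% and 22.3% were. The median log2 fold changes were 0.04 and 0.22. Aqp1, a water channel, had 204 to 245 normalized counts in Wt, 540 to 619 in Pkd1-/- and 259 to 277 in Pkd2-/- cells. It rose by 1.32 in Pkd1-/- (adjusted p = 3.447e-10) and by 0.22 in Pkd2-/- cells (adjusted p = 0.0363) on the log2 scale. The smaller change of Aqp1 in Pkd2-/- cells was lost without replicate 4 of every genotype (adjusted p = 0.108). S100a4, a calcium-binding protein gene at low level, had 3 to 5 counts in Wt and 11 to 16 in Pkd1-/- cells, higher by 1.67 on the log2 scale (adjusted p = 0.00217). The heat shock genes Hspa1a and Hspa1b, both among the 5 counted higher in Pkd2-/- cells, are near-identical copies, and their separate values are uncertain. Ptgs2, also among the 5, had 457 to 585 normalized counts in Wt and 570, 743, 687 and 1468 in Pkd2-/- cells. The libraries overlapped, the highest was replicate 4, and the change of Ptgs2 without replicate 4 is not given here.

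Of 14 genes that signal to NFAT5 or act with it, all were tested, 2 were higher and 1 lower in Pkd1-/- cells and 7 were higher and 2 lower in Pkd2-/- cells, none by 1 or more on the log2 scale, where 27.1% and 42.3% of all genes passed. Their median log2 fold changes were 0.07 and 0.14. Beside the same shares of all genes, of 13 genes of cell volume regulation 1 was higher and 5 lower in Pkd1-/- and 3 were higher and 6 lower in Pkd2-/- cells, with medians of -0.02 and -0.11. Stk39, which encodes the kinase SPAK that activates Na-K-Cl cotransport, had 13 to 22 normalized counts in Wt and at most 2 in any mutant library (adjusted p = 1.53e-05 and 2.035e-06). Summed over 4 libraries, Stk39 had 66 counts in Wt, 3 in Pkd1-/- and 1 in Pkd2-/- cells, ratios of 22.0 (95% exact interval 7.21 to 109, counting error only) and 66.0 (11.4 to 2646).

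Of 10 genes of urea and ammonia handling, 8 were tested, with 1 higher and 2 lower in Pkd1-/- and 3 higher and 1 lower in Pkd2-/- cells, again beside 27.1% and 42.3% of all genes. Their medians were 0.06 and 0.02. Glul, the glutamine synthetase, had 164, 188, 172 and 182 normalized counts in Wt, at most 3 in any Pkd1-/- library and 0 in all Pkd2-/- libraries (adjusted p = 1.07e-10 and 1.003e-12). The summed Wt count was 70.6 times that of Pkd1-/- cells (95% exact interval 38.2 to 148, counting error only), and against a floor of 3 counts per library Glul was at least 58.8-fold lower in Pkd2-/- cells. Arg2, a mitochondrial arginase, which releases urea, rose from 58 to 84 in Wt to 310 to 346 in Pkd2-/- cells, a log2 fold change of 2.25 (SE 0.14, adjusted p = 2.049e-10), and stood at 64 to 91 in Pkd1-/- cells (adjusted p = 0.464). Rhbg, an ammonia transporter gene, had at most 5 counts in any library and passed in Pkd1-/- cells (adjusted p = 0.0254), which was lost without replicate 4 of every genotype (adjusted p = 0.0546).

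**Figure D5:**
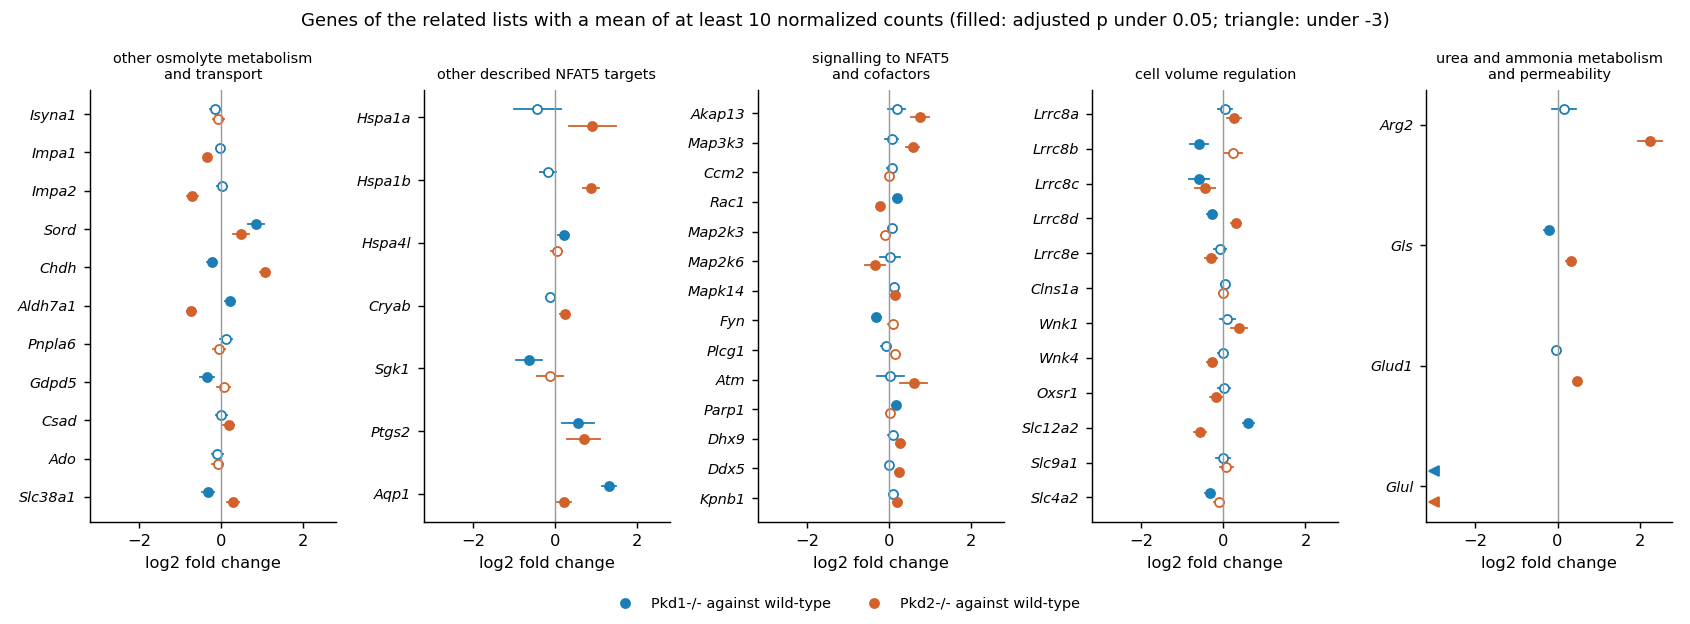
Log2 fold changes against Wt (horizontal axes) with 95% confidence intervals for those genes of the 5 related lists that averaged at least 10 normalized counts; blue is Pkd1-/-, orange is Pkd2-/-, filled points passed an adjusted p under 0.05 and triangles lie beyond the axis. Chdh, Slc12a2 and Aldh7a1 lie on opposite sides of 0 in the 2 mutants, and Glul lies beyond the axis in both.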

How the data were processed

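RNA-seq of 12 mIMCD3 libraries was analysed, 4 per genotype, grouped by the sample titles. According to the methods and the submitters' processing notes, the authors trimmed reads with Trim Galore, aligned them with HISAT2 to mm10, counted genes with HTSeq and normalized with DESeq2 size factors. The deposited values are a score, whole numbers rounded by the authors from these normalized counts, and not read counts. The annotation release and strand setting are not given in the sources used here. Rounding and the size factors change highly counted genes little but blur those below 10.

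Values were tested as log2(normalized count + 1) with limma 3.58.1 (R 4.3.3), trend = TRUE, all 12 libraries in 1 model, for 18552 genes with a mean of at least 1, two-sided, with Benjamini-Hochberg adjustment in each comparison. Passing means an adjusted p under 0.05, and fold changes of low genes are understated on this scale. Since the study fitted read counts with DESeq2, its thresholds were kept and its model was not. Symbols were found for 47223 identifiers. Coordinates and exon lengths come from GENCODE M21 (GRCm38). Depth was estimated from the step between low values, 0.887 to 1.129 reads per normalized count.

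The 8 members and the lists were chosen with earlier results of these data known. Named beside them are paralogs from the list of paralogs with a mean of at least 10 counts. List genes past both thresholds in a mutant against wild-type are also named, up to 6 a list. So are the 3 genes most like Nfat5. Akr1b3's 2 neighbours in family and Mrps6 come under the paralog rule. Slc38a1, the heat shock pair, Ptgs2, Slc12a2 and Aldh7a1 were named after their values were seen. Alternatives were other pseudocounts and filters, upper-quartile scaling, voom weights, pairwise models, a replicate block and leaving out each library, with 3 alternatives on replicate 4 and on transcript length and GC content added after seeing the data. The fit was tested on simulated data.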

Additional observations from a re-analysis of the deposited data

Results flagged for a closer look

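In 5 genes the mutants moved in opposite directions from Wt, and the difference between the mutants itself passed the test (limma). The log2 fold change of Pkd2-/- against Pkd1-/- was 1.25 for Nfat5, 0.92 for Slc5a3, 1.30 for Chdh, 0.61 for Slc38a1 and -0.39 for Akr1b8.

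In 2 of 54 groups of 4 libraries, 1 library stood far from the other 3 by Dixon's test, where chance marks about 1 in 20 groups. Slc6a6 had 4705 normalized counts in Wt replicate 4, and the other Wt libraries had 4289 to 4331. Glul had 1 normalized count in Pkd1-/- replicate 2 and 3 in each of the others. With rounded low counts that tie in this way, Dixon's ratio is at its largest by construction, so the mark says nothing about that library.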

How the results depend on the processing

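Under 23 alternatives, the number of members that passed stayed within 1.5 times its main value in all 3 comparisons, and no direction that had passed was reversed. With the log2 fold change threshold added, the count in Pkd2-/- against Pkd1-/- was 1 and became 2 without Pkd2-/- replicate 3, when Slc5a3 reached 1.02. Leaving out each library in turn gave Nfat5 fold changes of -0.75 to -0.51 in Pkd1-/- and 0.49 to 0.73 in Pkd2-/- cells. Akr1b3 in Pkd2-/- against Pkd1-/- kept its call in 14 of 23 alternatives, and Slc38a2 in Pkd1-/- gained a call in 2; the cause was not tested. Over all alternative values of named genes, 1442 stayed on the same side of the threshold, called or not, 40 lost a call and 15 gained one. Correlations of same-numbered libraries ran from -0.07 to 0.20 and not every pair exceeded 0.1, so the main fit did not pair libraries. Differently numbered libraries ran from -0.20 to 0.11. Between replicates 4 the correlation was 0.20 for Wt and Pkd2-/-, 0.17 for Pkd1-/- and Pkd2-/-, and 0.09 for Wt and Pkd1-/-. A replicate block lowered the SE of Nfat5 from 0.14 to 0.08. What the replicates 4 share was not tested. With the replicate block, 3, 5 and 5 members passed in the 3 comparisons, as without it, Nfat5 was -0.63, 0.62 and 1.25, and of the named genes only Aqp1 in Pkd2-/- cells lost its call (adjusted p = 0.0514). Over all genes, the length and GC correction raised the share of higher among passing genes in Pkd2-/- cells from 47.4% to 64.0%, and a filter at a mean of 10 lowered the genes past both thresholds in Pkd1-/- cells from 1158 to 739. Depth limits the urea transporters, Slc6a12, S100a4 and Rhbg, where a few reads decide a value.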
